A study of Homo sapiens with 20 samples.

Results

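The ZBTB genes were examined here as a family of transcription factor transcripts that carry N6-methyladenosine (m6A), a methyl mark on adenosines inside messenger RNA. Members were all protein-coding genes of the GENCODE annotation (hg38) with a symbol made of ZBTB and a number, which gave 42 of 20046 protein-coding genes. An m6A peak was assigned to a member when its summit, the base of strongest signal in the peak, lay in an exon of that gene. Peaks of all libraries had been merged into 43676 regions, of which 123 were assigned to a ZBTB gene in this way. A pair of these regions fell in exons of 2 members each, so 125 pairs of gene and region were described. A library is said to have called a region when any of its peaks overlapped it, wherever that peak's summit lay. The data came from methylated RNA immunoprecipitation and sequencing (MeRIP-seq), in which fragmented RNA is pulled down with an anti-m6A antibody and compared with input RNA. The 2 groups were the cisplatin-sensitive human bladder cancer line T24 and its cisplatin-resistant derivative T24R2, both labelled wild type and day 3, with 5 immunoprecipitated libraries each and as many inputs. T24R2 had been made from T24 by serial exposure to cisplatin and was kept in medium with the drug, whereas T24 was grown without it. Each group is 1 line, so clonal differences and resistance cannot be told apart. The labels do not say whether replicates were separate cultures, and p-values measure the spread between these libraries.

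ZBTB proteins carry a BTB domain near their amino terminus, which lets them dimerise and recruit partners such as the BCOR co-repressor or the CUL3 ubiquitin ligase. Zinc fingers toward the carboxyl terminus bind DNA. Members are known as repressors and lineage regulators, above all in blood cells, and several read methylated CpG sites. In most messenger RNAs, m6A sits at DRACH motifs (R stands for either purine, D for any base but C, and H for any base but G) in long internal exons and in last exons near the stop codon, while exon junctions keep the writer complex away from short exons.

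From the results below, 8 sites are shown with 10 bases on each side. They were read from the hg38 reference on the strand of the gene, with the DRACH motif nearest the median summit in capitals. A peak does not resolve which adenosine is methylated. The first sequence lies in the region that differed most between the lines, and the next 3 lie in regions called more often in 1 line. A further region of that kind, in ZBTB48 exon 3, is not shown. The other sequences lie in strongly enriched regions or in the best known methyl-CpG reader of the family.
ZBTB49, last exon, chr4:4320899-4320923, plus strand: agtgtcggttAAACTccctgtccac
ZBTB8B, last exon, chr1:32485357-32485381, plus strand: atgattctgaTGACAaaccacaaat
ZBTB32, last exon, chr19:35716511-35716535, plus strand: agcgctcccgGGACTtctcggccat
ZBTB45, 3′UTR, chr19:58513794-58513818, minus strand: tctgagaactGGACTatttcctgcg
ZBTB7B, last exon, chr1:155016528-155016552, plus strand: atggccacctGGACAccttccgcct
ZBTB2, last exon, chr6:151365585-151365609, minus strand: tgggcagtggGGACTcggaagtaac
ZBTB26, last exon, chr9:122919393-122919417, minus strand: tggatatggaGGACAgtgatattca
ZBTB33, last exon, chrX:120253490-120253514, plus strand: acgtggccatGGACTcttctgtgat

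Of the 42 ZBTB genes, 39 (92.9%) carried at least 1 region in an exon, compared with 51.1% of all protein-coding genes, 91.2% of 249 ZNF genes of chromosome 19 and 77.8% of 18 KLF genes, both zinc finger families. A region called in all 10 libraries was present in 35 members (83.3%), compared with 28.0% of all protein-coding genes, 72.7% of the ZNF genes and 66.7% of the KLF genes. With the summit required in an exon of the gene in every library as well, 33 members (78.6%) had such a region, compared with 26.6% of all protein-coding genes. No region was assigned to ZBTB12, to ZBTB16 (PLZF, a regulator of stem cells and innate-like lymphocytes) or to ZBTB7C, and ZBTB9, ZBTB22, ZBTB32 and ZBTB8B had regions but none in all libraries. The lists hold peaks and no transcript levels, so a member without a peak may be unmethylated, weakly expressed or silent, and these cannot be told apart here. Regions per marked gene ranged up to 7, with a median of 3 (2 over all marked protein-coding genes), and 23 members had 3 or more. ZBTB7A and ZBTB40 had 7 regions each, and ZBTB37, ZBTB38 and ZBTB46 had 6 each. ZBTB8OS is a member by symbol alone: it lies on the opposite strand from ZBTB8A and encodes a factor for tRNA splicing without a BTB domain. Its only region, chr1:32600037-32600518, also lies in the last exon of ZBTB8A, and since the peaks carry no strand the source transcript cannot be told apart. The same holds for chr14:64504087-64504715, shared by ZBTB1 and ZBTB25.

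Of the 123 regions, 60 (48.8%, 95% Wilson interval 40.1 to 57.5%, which covers counting error only) were called in all 10 libraries, compared with 31.5% of the 25300 exonic regions of protein-coding genes. In the ZNF and KLF genes the shares were 45.8% and 48.7%, close to that of the ZBTB genes. Of the 61 pairs of gene and region called in all libraries, 56 had a summit in an exon of the gene in every library, and the other 5 were in ZBTB11, ZBTB17, ZBTB4, ZBTB7A and ZBTB8OS. Of the 123 regions, 15 (12.2%) were called in a single library, compared with 20.7% of exonic regions of protein-coding genes. The ZNF and KLF genes had 15.2% and 15.4%. ZBTB summits numbered 80, 88, 93, 96 and 100 in T24 replicates 1 to 5 (91.4 ± 7.73, SD, n = 5) and 97, 80, 99, 92 and 113 in T24R2 (96.2 ± 11.9, SD, n = 5), so the groups overlapped. As a share of all peaks in a list the means were in the opposite order. T24 libraries had 0.450% ± 0.0476 (SD, n = 5) and T24R2 libraries 0.375% ± 0.0331 (SD, n = 5), again with overlap. The lists themselves were longer in T24R2 (22671 to 33120 peaks) than in T24 (17203 to 22901), and T24R2 replicate 5 had the longest. Read depth is unknown, since the lists give no counts of reads. The number of members with a summit was nearly constant, at 35 to 37 in T24 and 36 or 37 in T24R2.

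**Figure D1:**
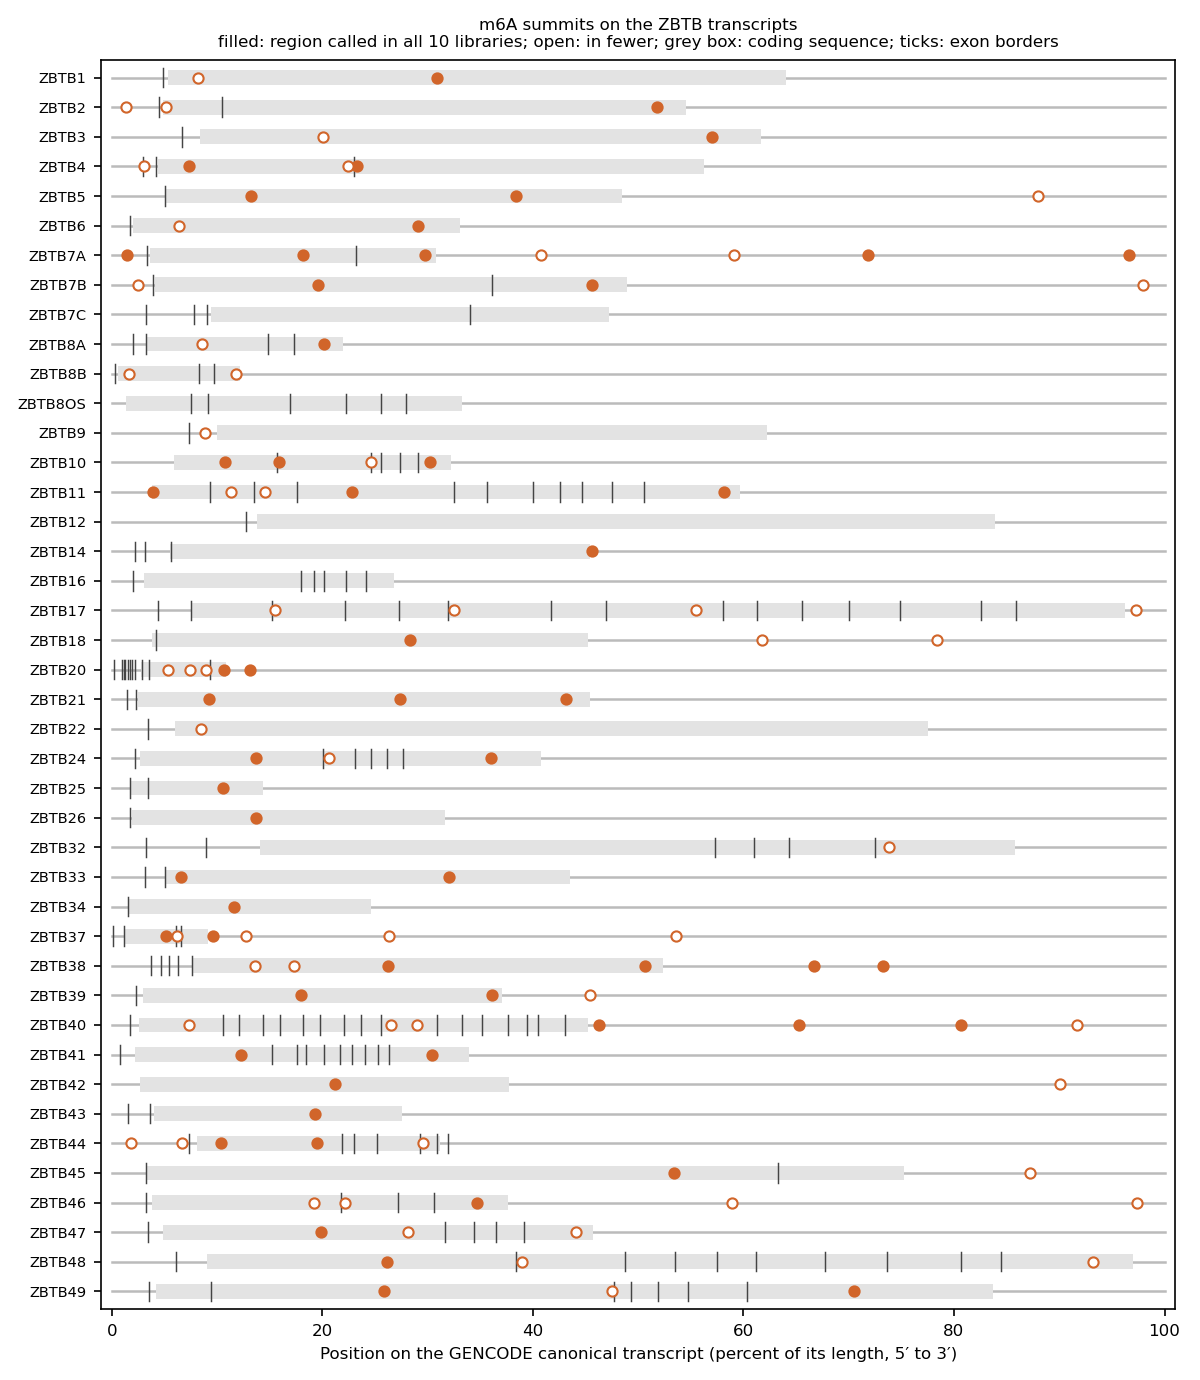
Summits of the ZBTB regions on the canonical transcript of each of the 42 genes (horizontal axis: percent of transcript length from 5′ to 3′). Filled dots are regions called in all 10 libraries, open dots are regions called in fewer, grey boxes are coding sequence and ticks are exon borders. The 10 pairs whose summit lies outside the canonical exons are not drawn. Filled dots sit mainly on wide exons and last exons, and short exons between closely spaced ticks are largely empty.

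Summits in ZBTB transcripts lay mostly in long exons. Median length of the exon under the summit was 2304 nt over the 125 pairs and 871 nt over the 26742 pairs of all protein-coding genes. An exon of 1000 nt or more held 83 pairs (66.4%, compared with 47.0%), and the longest coding exon of the transcript held 60 (48.0%, compared with 33.0%). For comparison, the median was 3293 nt in the ZNF genes of chromosome 19, which typically encode their zinc fingers in a single last exon, and 1075 nt in the KLF genes. In the ZNF and KLF genes, exons of 1000 nt or more held 86.0% and 51.3% of pairs. The longest coding exon held 82.0% and 35.9%. Among the 61 pairs called in all libraries, the median was 4026 nt (1599 nt over all protein-coding genes), and 55 (90.2%, compared with 74.9%) lay in the longest coding exon or the last exon. By annotation, 82 pairs (65.6%) lay in coding sequence, 26 (20.8%) in 3′UTR, 7 (5.6%) in 5′UTR and 10 (8.0%) in exons outside the canonical transcript. Over all protein-coding genes these shares were 53.7, 25.8, 7.68 and 12.8%. In coding sequence, summits were found along the whole message, with 42 of 82 in the first 50% of its length.

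Within these transcripts, the share of marked exons rose with their coding bases. A summit in the untranslated part of such an exon also marked it. In members with a region in all libraries, 25 of 26 exons with 1000 or more coding bases held such a region (96.2%, compared with 91.3% over all protein-coding genes). The exception was exon 11 of ZBTB20, with 1605 coding bases, where 1 region was called in 9 libraries and 2 others in fewer. The share was 10 of 13 for 500 up to 1000 coding bases (76.9%, compared with 79.2%), 8 of 28 for 200 up to 500 (28.6%, compared with 20.7%) and 1 of 74 below 200 (1.35%, compared with 4.24%). The short exon in question was the last exon of ZBTB40, which has 192 coding bases but 4953 nt in all. Of the marked exons with 200 up to 500 coding bases, exon 1 of ZBTB11 had 528 nt in all. Its region had the summit in that exon in 2 T24 and 0 T24R2 libraries. The other marked exons of this size were last exons of 2304 to 24927 nt. Coding bases and total length of an exon were not separated. The shares were not tested against those of other genes. Genes were chosen here for having a region in all libraries, which favours a high share where 1 exon holds most of the coding sequence. This choice left out ZBTB12, ZBTB16, ZBTB22, ZBTB7C and ZBTB9. Their longest coding exons have 1377, 1268, 1902, 1208 and 1419 coding bases. The same choice left out ZBTB32 and ZBTB8B, whose longest coding exons have 881 and 991 coding bases. The median longest coding exon was 1270 nt in ZBTB genes and 309 nt in all protein-coding genes, and in 20 members 1 exon held more than 75% of the coding sequence.

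**Figure D2:**
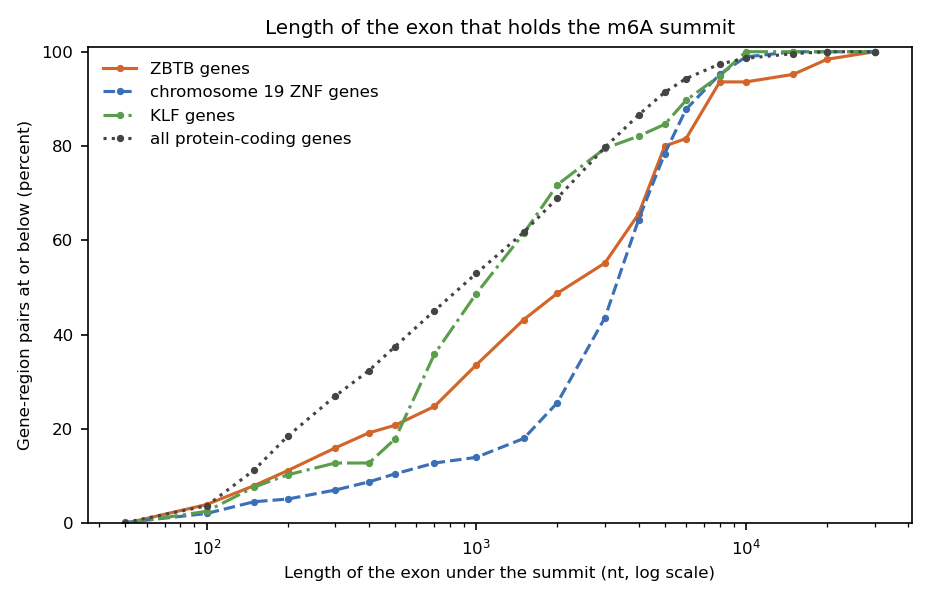
Cumulative percent of pairs of gene and region (vertical axis) by length of the exon under the summit (horizontal axis, nt, log scale) for ZBTB genes, ZNF genes of chromosome 19, KLF genes and all protein-coding genes. The ZBTB curve crosses 50% at a median of 2304 nt, between all protein-coding genes (871 nt) and the chromosome 19 ZNF genes (3293 nt).

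The strength of a region is given below as its fold percentile, the percentile of the fold enrichment of its highest peak among all peaks of the same list, where high values mean strong enrichment over input. It depends on the rest of the list and is no measure of the fraction of methylated molecules. Means are given ± SD over the 5 libraries of a line. The methyl-CpG readers ZBTB33, ZBTB38 and ZBTB4 were marked in every library. ZBTB33 (Kaiso) has 2 regions, both in its single coding exon of 4985 nt. The region at chrX:120253329-120253727, near the start of the coding sequence, had fold percentiles of 64.1, 25.8, 60.9, 32.5 and 63.7 in T24 and 45.1, 45.0, 53.9, 10.4 and 43.0 in T24R2. Libraries of the 2 lines overlapped widely there. The larger region at chrX:120254076-120255478 stood at 31.6 ± 4.69 in T24 and 33.6 ± 10.7 in T24R2. ZBTB38 carried 4 regions in all libraries, all in its last exon of 7404 nt, 2 in coding sequence and 2 in 3′UTR, with mean percentiles from 26.6 to 70.2 over the 10 libraries. ZBTB4 carried regions in exons 3 and 4 in all libraries, at 54.8 ± 25.1 and 41.9 ± 14.3 in T24 and 63.2 ± 30.6 and 48.2 ± 14.0 in T24R2. Its 5′UTR region at chr17:7467263-7467450 was called in 3 T24 libraries and no T24R2 library.

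ZBTB7A and ZBTB7B are related regulators of blood lineages and held the lowest and the highest of the regions called in all libraries. ZBTB7B (ThPOK, which directs CD4 T cell fate) held the strongest region of the family, chr1:155016068-155017921, over the end of the coding sequence in its last exon. Fold percentiles there were 97.7, 99.2, 98.6, 99.5 and 91.6 in T24 and 98.6, 99.8, 98.5, 98.9 and 99.7 in T24R2. The other ZBTB7B region in all libraries, in exon 2, stood at 91.8 ± 7.92 in T24 and 87.8 ± 6.38 in T24R2. ZBTB7A (LRF, a repressor of fetal globin) had 5 regions in all libraries, the most of any member, spread over 5′UTR, coding exon 2, the stop codon region and 3′UTR. The 5′UTR region, chr19:4066718-4067200, runs past the annotated start of the gene and had its summit in the exon in 1 T24 and 2 T24R2 libraries. With the summit in an exon in every library, ZBTB7A and ZBTB38 had 4 regions each. Both 3′UTR regions were among the 3 lowest of the family. At chr19:4044952-4045379 the values were 12.2, 6.45, 54.4, 4.62 and 8.44 in T24 and 14.7, 16.0, 28.5, 16.7 and 59.2 in T24R2. At chr19:4043428-4043686 they were 40.1, 15.7, 7.84, 11.0 and 15.5 in T24 and 2.63, 43.5, 46.1, 42.9 and 14.6 in T24R2. Lines overlapped at both. The third low region was in the 3′UTR of ZBTB38, chr3:141447431-141447814, with 18.4, 2.26, 4.97, 15.0 and 57.1 in T24 and 6.33, 11.7, 85.2, 19.1 and 46.2 in T24R2, again with overlap.

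After ZBTB7B, the highest mean fold percentiles belonged to regions of ZBTB24, ZBTB26, ZBTB5 and ZBTB48. ZBTB24, mutated in an immunodeficiency with loss of centromeric DNA methylation, had its region at chr6:109465503-109466483 in the last exon, which also overlaps an exon of MICAL1. Its values were 83.1, 89.5, 98.5, 97.6 and 97.7 in T24 and 92.7, 98.5, 94.5, 98.3 and 97.5 in T24R2. The ZBTB26 region, chr9:122918470-122919963 in the last exon, gave 98.2, 76.7, 97.6, 98.8 and 92.0 in T24 and 96.3, 92.1, 85.5, 97.5 and 97.8 in T24R2. ZBTB5, a repressor of CDKN1A, had 98.8, 96.5, 74.0, 87.5 and 89.4 in T24 and 94.9, 90.6, 99.7, 96.0 and 98.2 in T24R2 at chr9:37441809-37442667. ZBTB48 (TZAP), which binds telomeric repeats, had 98.3, 81.1, 99.6, 73.2 and 98.2 in T24 and 97.2, 94.1, 85.1, 98.5 and 90.8 in T24R2 at chr1:6580504-6581344 in exon 2. None of these 4 regions separated the lines. Median of the mean percentile over the 60 ZBTB regions was 68.8, compared with 64.2 over the exonic regions of all protein-coding genes called in every library.

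Among other members with known roles, ZBTB18 (RP58, a neuronal repressor) was marked in its coding exon at 92.1 ± 14.0 in T24 and 85.4 ± 22.3 in T24R2. ZBTB10 carried 3 regions in all libraries, the strongest at 81.9 ± 6.61 in T24 and 91.3 ± 12.6 in T24R2. ZBTB43 had a single region, at 85.4 ± 10.0 and 80.1 ± 16.6. These differences lay within the spread between replicates. ZBTB14 also had a single region, in the 3′UTR close to the stop codon, at 58.5 ± 26.2 in T24 and 86.6 ± 11.2 in T24R2. Libraries of the lines overlapped there, and the region did not pass (limma adjusted p = 0.315). ZBTB1, needed for lymphoid development, had 1 region in all libraries, at 51.9 ± 26.3 in T24 and 49.0 ± 14.9 in T24R2. ZBTB20, a repressor of alpha-fetoprotein in liver, had 2, at 66.9 ± 13.1 and 31.2 ± 26.0 in T24 and 58.5 ± 23.2 and 41.5 ± 14.5 in T24R2. ZBTB44 had 2 in exon 2, at 66.9 ± 24.8 and 68.7 ± 19.8 in T24 and 58.5 ± 17.8 and 57.4 ± 12.1 in T24R2. ZBTB46, a dendritic cell factor, was marked in all libraries only in the coding part of its last exon, at 51.7 ± 10.4 in T24 and 64.5 ± 25.4 in T24R2. ZBTB17 (MIZ1, a partner of MYC) has short coding exons, the longest with 301 coding bases. Its only region in all libraries lay in an exon outside the canonical transcript, with the summit in that exon in 4 T24 and 3 T24R2 libraries, at 75.2 ± 12.5 in T24 and 89.6 ± 20.9 in T24R2, and the other 4 were called in at most 1 T24 library and 4 T24R2 libraries.

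The lines were then compared by how many libraries called each region. None of the 123 ZBTB regions was called in all 5 libraries of 1 line and none of the other. Of the 25300 exonic regions of protein-coding genes, 241 were called in T24 alone and 581 in T24R2 alone in this way. These are small shares, so the absence among 123 regions is not read as a trait of the family. With 5 against 5 libraries, an unadjusted two-sided Fisher's exact p below 0.05 needs at least 4 calls of difference. It was reached by 3 ZBTB regions called more often in T24R2 and by 1 called more often in T24, whereas 7.11% of all 43676 regions were called more often in T24R2 and 2.09% more often in T24 by the same rule. Both directions together made 3.25% of ZBTB regions and 7.7% of exonic regions of protein-coding genes, so the family was not above the background. When peaks had to cover 50% of a region, 11 ZBTB regions were called more often in T24R2 and 0 in T24 (8.94% in all), compared with 9.06% of exonic regions of protein-coding genes. After Benjamini-Hochberg adjustment over all regions no region passed, with a smallest adjusted Fisher's exact p of 0.195 overall and 0.517 in ZBTB genes.

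ZBTB32 (ROG, a repressor of T cell activation) had its only region, chr19:35716394-35716886 in the last exon, in 0 T24 and 4 T24R2 libraries (exact p = 0.0476). Its fold percentiles were 28.6, 23.0, 42.4 and 40.4 in T24R2 replicates 1, 2, 3 and 5. The ZBTB45 3′UTR region, chr19:58513532-58514032, was called in 1 T24 library at 56.9 and in all T24R2 libraries at 25.4, 12.6, 29.5, 61.8 and 48.7 (exact p = 0.0476). ZBTB48 exon 3, chr1:6581952-6582250, was likewise called in 1 T24 library at 22.5 and in all T24R2 libraries at 6.88, 5.53, 60.2, 42.7 and 80.4 (exact p = 0.0476). Mean percentiles of the 3 regions in T24R2 were 33.6, 35.6 and 39.1. Each list was then shortened to its 17203 strongest peaks, the length of the shortest list. In the shortened lists no ZBTB region, these 3 included, had an unadjusted Fisher's exact p below 0.05 with more calls in T24R2. Of exonic regions of protein-coding genes, 2.72% did, a small share for a family of 123 regions. Among peaks with −log10 q of at least 10 the 3 regions were left with 0 T24 libraries each and 0, 1 and 2 T24R2 libraries, in the order given. At that threshold 4 other ZBTB regions passed the unadjusted Fisher's exact test with more calls in T24R2, in ZBTB1, ZBTB45, ZBTB46 and ZBTB49 (3.25% of ZBTB regions, compared with 4.07% of exonic regions of protein-coding genes). The ZBTB45 region among them, chr19:58518706-58519742 in an exon outside the canonical transcript, was singled out after its values were seen. It was called in 3 T24 libraries, at 23.5, 49.9 and 14.6 in replicates 2, 4 and 5, and in all T24R2 libraries at 73.7, 79.9, 94.0, 83.5 and 74.3. At the stricter threshold 0 T24 and 5 T24R2 libraries held it, and in the shortened lists 2 and 5 did. The ZBTB8B region was a strong peak in T24. Lying at chr1:32485156-32485564, at the end of the coding sequence in the last exon, it had fold percentiles of 95.1, 98.6, 99.7, 99.4 and 92.7 in T24 and was called in T24R2 replicate 5 alone, at 35.5 (exact p = 0.0476). In the shortened lists every T24 library and no T24R2 library still held it, as was the case among peaks with −log10 q of at least 10. The second ZBTB8B region, chr1:32470522-32471462 in exon 2, was called in 3 T24 and 0 T24R2 libraries. Both ZBTB8B regions also lie in exons of an overlapping gene that the annotation lists by identifier alone (ENSG00000254553).

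**Figure D3:**
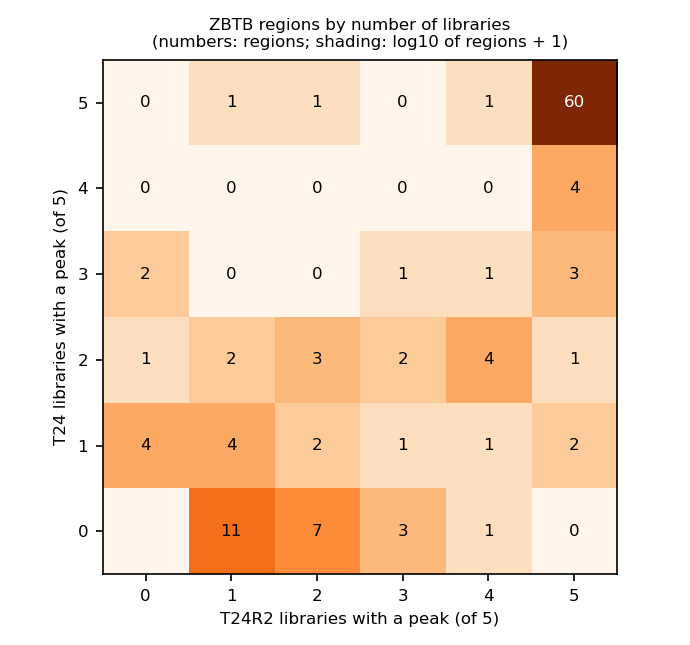
Number of ZBTB regions by libraries with a peak in T24 (vertical axis) and T24R2 (horizontal axis), out of 5 each; shading follows the number on a log scale. The upper right cell holds the 60 regions called in all libraries, and the corners for 5 against 0 hold no region.

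Regions called in all libraries were compared by fold percentile with limma, which gave 60 ZBTB regions among 9577 tested. With a Benjamini-Hochberg adjusted p below 0.05, 1 ZBTB region was higher in T24R2 and 0 were higher in T24, whereas 0.731% and 0.167% of all regions tested were called in these directions. At an unadjusted limma p below 0.05 there were 7 ZBTB regions, and 13.9% of all regions. Median difference (T24R2 minus T24) was 5.17 points over the ZBTB regions and 4.84 over all regions, and 37 of 60 ZBTB regions had the higher mean in T24R2, compared with 64.4% of all regions. Within a line the SD of a ZBTB region was typically 17.7 points, so that most differences in the family were smaller than the spread between replicates.

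The region that changed was in ZBTB49, a factor known to raise CDKN1A transcription. It lies at chr4:4320631-4321309, in the coding part of the last of 8 exons. Fold percentiles were 16.3, 41.2, 25.3, 10.1 and 39.2 in T24 and 79.2, 96.2, 73.0, 90.8 and 88.5 in T24R2, so that every T24R2 library lay above every T24 library. The deposited fold enrichments of the same peaks were 4.71, 6.14, 5.48, 3.90 and 5.83 in T24 and 9.96, 19.1, 8.62, 14.5 and 12.9 in T24R2. Mean percentile rose from 26.4 ± 13.7 to 85.5 ± 9.33 (SD, n = 5 each), a difference of 59.1 points with a standard error of 8.04 (limma adjusted p = 0.0107). The call held with each library left out in turn, with differences of 55.0 to 62.8 points, and also with log2 fold enrichment, centred on the median of each library over the regions tested, in place of the percentile, where the difference was 1.18 (limma adjusted p = 0.0252). It was lost with an exact permutation test for each region (p = 0.00794, the smallest possible, adjusted p = 0.176), and also in limma with the replicate number as a block (limma adjusted p = 0.103). Each of these settings called 0 of 9577 regions. In the permutation test 431 regions shared the smallest p, so the ZBTB49 region could not have passed. Among peaks with −log10 q of at least 10 every T24R2 library and no T24 library held this region, whereas the shortened lists held it in 2 T24 and 5 T24R2 libraries. The ZBTB49 region in exon 3, chr4:4301885-4303041, also had a higher mean in T24R2 but did not pass, with 44.2, 60.0, 57.2, 20.2 and 63.6 in T24 and 64.5, 71.1, 56.8, 75.5 and 93.9 in T24R2 (limma adjusted p = 0.316). Transcript levels of ZBTB49 are not part of the lists, and their part in the result was not tested.

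**Figure D4:**
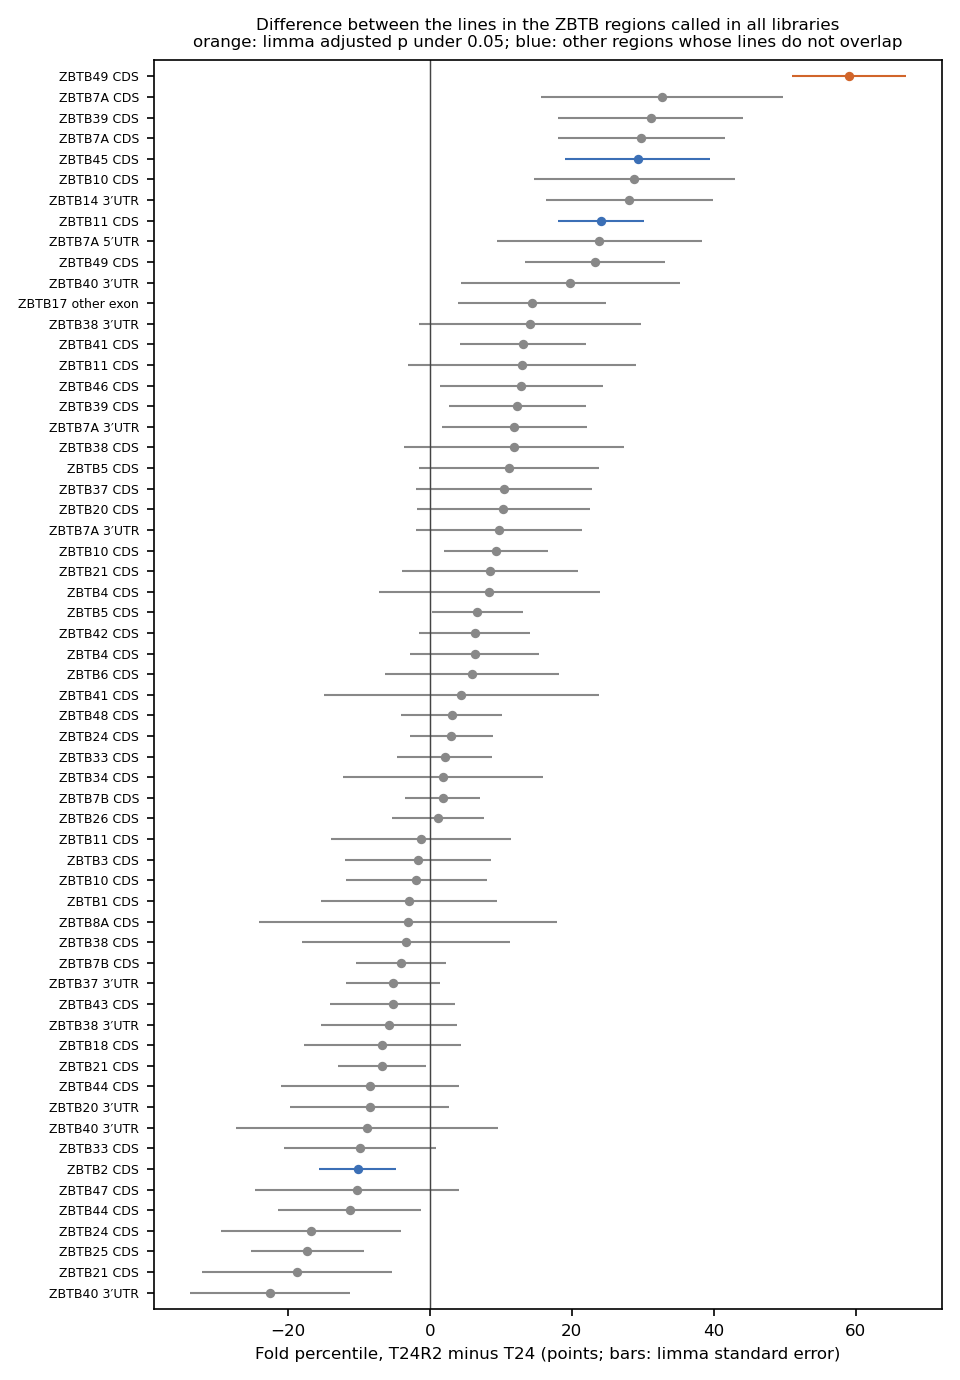
Difference in fold percentile (T24R2 minus T24, points) for the 60 ZBTB regions called in all libraries, each with its limma standard error and labelled by gene and part of the transcript. ZBTB49 at 59.1 points (orange) is the region with an adjusted p below 0.05, and 4 regions in all, ZBTB49 included, have lines that do not overlap.

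Complete separation of the lines was seen in 3 ZBTB regions with T24R2 above and 1 with T24 above, whereas 3.63% and 0.867% of all regions tested separated in these directions. Besides ZBTB49, ZBTB45 exon 2 (chr19:58516413-58517766) had 65.5, 31.9, 72.5, 24.6 and 69.1 in T24 and 80.2, 79.6, 75.5, 93.7 and 81.2 in T24R2 (limma adjusted p = 0.214). ZBTB11 is a gene needed for neutrophil development. The region over its start, chr3:101676612-101677639, had 54.1, 62.4, 60.9, 66.7 and 62.8 in T24 and 77.3, 83.8, 89.6, 80.9 and 95.8 in T24R2 (limma adjusted p = 0.0944). This region runs past the annotated start of ZBTB11 and had its summit in exon 1 in 2 T24 libraries and in 0 T24R2 libraries, and it overlaps the antisense gene ZBTB11-AS1, so its values cannot be assigned to ZBTB11. When the percentile of −log10 q replaced that of the fold, the region over the ZBTB11 start passed with a difference of 36.2 points (limma adjusted p = 0.00276). By that measure 2 of 60 ZBTB regions passed, compared with 3.18% of all 9577 regions, so the family was near the background. ZBTB2, a repressor in the p53 pathway, was the region with T24 above, at chr6:151365083-151366671, with 92.5, 97.7, 94.8, 98.0 and 97.7 in T24 and 91.6, 88.4, 80.7, 85.5 and 83.7 in T24R2. Its difference was −10.2 points (limma adjusted p = 0.435), and by the percentile of −log10 q it was −0.312.

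The other large differences did not pass the test and their lines overlapped. ZBTB7A near the stop codon, chr19:4047510-4048374, had 69.7, 2.72, 40.9, 19.2 and 91.5 in T24 and 35.6, 89.3, 75.7, 91.5 and 95.6 in T24R2 (limma adjusted p = 0.421). ZBTB39 at the end of its coding sequence, chr12:57002640-57003165, had 60.8, 77.6, 58.5, 96.9 and 11.5 in T24 and 99.7, 89.2, 91.5, 94.7 and 85.5 in T24R2 (limma adjusted p = 0.315). In both regions T24 libraries were widely scattered. In the other direction, ZBTB40 (chr1:22526186-22527065, 3′UTR) had 83.6, 78.4, 79.7, 66.2 and 70.2 in T24 and 33.0, 71.5, 87.3, 48.6 and 24.9 in T24R2 (limma adjusted p = 0.408). ZBTB21 (chr21:41991957-41992849) had 29.4, 77.8, 55.0, 76.4 and 70.4 in T24 and 36.7, 51.1, 2.83, 74.7 and 50.3 in T24R2 (limma adjusted p = 0.585). ZBTB25 (chr14:64486922-64488148) had 79.8, 86.8, 93.4, 92.2 and 89.4 in T24 and 55.0, 78.7, 54.1, 86.0 and 81.4 in T24R2 (limma adjusted p = 0.362). The differences of these 3 regions were −22.6, −18.7 and −17.3 points.

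**Figure D5:**
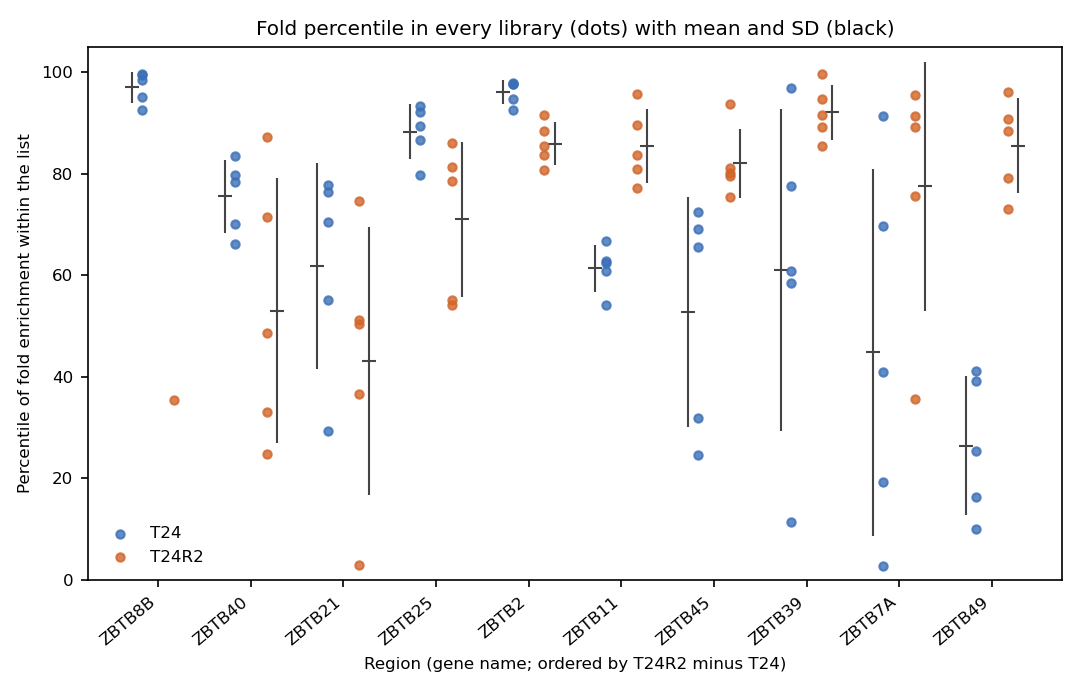
Fold percentile in every library (dots; T24 blue, T24R2 orange) with mean and SD (black) for 10 ZBTB regions: the largest differences in either direction, the regions whose lines did not overlap, and ZBTB8B. In ZBTB49 all T24 values lie at or below 41.2 and all T24R2 values at or above 73.0, and ZBTB8B has a single T24R2 value of 35.5.

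The DRACH motif, as spelled out above, was searched on both strands within 50 nt on each side of the median summit. On the strand of the gene it was present in 102 of 125 pairs (81.6%), compared with 71.2% on the opposite strand of the same windows. For all protein-coding genes the shares were 88.2% and 72.6%. Among pairs called in all libraries the shares on the strand of the gene were 88.5% for ZBTB genes and 92.5% for all genes. GGAC, the core of the strongest form of the motif and overlapping DRACH wherever A, C or T follows, was found in 40.8% of ZBTB pairs on the strand of the gene and 25.6% on the other, compared with 46.4% and 26.7% over all genes. A match describes the letters near a summit and is not a mapped methylation site.

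Related genes from fixed lists were described by the same counts. Of the 8 other BTB zinc finger genes, 6 had a region, all 6 of them in all libraries, and BCL6 and BCL6B had none. HIC1, HIC2, PATZ1, GZF1, MYNN and ZNF131 together held 20 regions with a median exon of 1046 nt, and none had an unadjusted presence p below 0.05. Of the 14 co-repressor and CUL3 partner genes, 11 had a region and 10 had 1 in all libraries, whereas HDAC1, HDAC2 and HDAC3, the deacetylases of these complexes, had none. The partners' median exon was 305 nt, with 9 regions in BCOR and 2 in CUL3, neither CUL3 region being called in all libraries. An unadjusted presence p below 0.05 was found in 2 of their 69 regions, both more often in T24R2, in CTNND1 and SIN3B. That was 2.9% of the regions of these partners, below the 7.7% of exonic regions of protein-coding genes.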

How the data were processed

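MeRIP-seq libraries of T24 and T24R2 were used as deposited. The authors aligned reads to hg38 with the GENCODE annotation by STAR 2.7.0, kept uniquely mapped reads without duplicates with SAMtools 1.10 and called peaks of IP over input in each library with MACS2 3.0.0a6, versions per the submitters' processing notes. Column 7 of the deposited peak lists is a fold enrichment (a ratio), columns 8 and 9 are −log10 p and q values, and column 5 is a score that the authors' caller derives from −log10 q. A deposited set of 43676 merged regions equalled a merge of the 10 lists with bedtools 2.31.1. The lists contain no read counts, so depth is unknown and the count tests of the study could not be run.

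Exons were taken from GENCODE release 44 (canonical transcripts) in Python 3.11.15. A library had a region when 1 of its peaks overlapped it, and the median summit over libraries chose the exon. Presence was tested with a two-sided Fisher's exact test, and fold percentiles with limma 3.58.1, both with Benjamini-Hochberg adjustment over all regions and a threshold of 0.05. Both steps were tested on simulated data. Named with values were regions past a test or with the largest differences, the 5 highest and 3 lowest regions, genes with 3 or more regions by their counts, and a list of members with known roles. Alternatives were a −log10 q of at least 10, equal list lengths, a stricter overlap, other measures and tests, limma with a replicate block, and omission of each library in turn. The members, lists and tests were chosen with earlier results of these data known. The values of 1 gene of the co-repressor list, which is included in that list's counts, are not reported here.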

Additional observations from a re-analysis of the deposited data

Results flagged for a closer look

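In 128 sets of 5 values, 1 library's gap to the nearest of the others was taken as a share of the whole range. This ratio was compared with Dixon's critical value of 0.71, and 17 sets exceeded it. That value stands for about 5% of sets of normally distributed values. Percentiles are bounded and counts are whole numbers, so the number of sets flagged is not read as an excess. In 16 of the 17 sets the library was low or high in the fold percentile of a single ZBTB region called in all libraries while the other 4 lay close together.

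In T24, replicate 3 was low in ZBTB10 exon 2 (49.4, others 80.2 to 84.7), in the ZBTB20 3′UTR (44.4, others 66.7 to 75.5) and in ZBTB42 (64.2, others 83.7 to 89.8), and high in a ZBTB7A 3′UTR region (54.4, others 4.62 to 12.2). Replicate 1 was low in the ZBTB41 last exon (46.7, others 82.4 to 95.5) and in ZBTB47 exon 2 (35.0, others 83.3 to 98.3), and high in the other ZBTB7A 3′UTR region (40.1, others 7.84 to 15.7). Replicate 2 was low in ZBTB18 (67.0, others 97.4 to 99.2). Replicate 5 was low in ZBTB37 exon 3 (27.9, others 88.4 to 96.8) and in the strongest ZBTB7B region (91.6, others 97.7 to 99.5).

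In T24R2, replicate 3 was low in ZBTB18 (45.6, others 94.0 to 97.0), the ZBTB17 region (52.2, others 98.6 to 99.7), the ZBTB11 last exon (25.1, others 74.7 to 88.7) and ZBTB47 exon 2 (26.4, others 75.2 to 85.6). Replicate 1 was low in ZBTB3 (42.6, others 91.0 to 94.1), and replicate 4 in the ZBTB33 region near the start of the coding sequence (10.4, others 43.0 to 53.9). Replicate 4 also had summits in 36 ZBTB genes where the others each had 37, a set in which any difference would be flagged.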

How the results depend on the processing

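Of 113 values recomputed under an alternative, 88 were scored as unchanged. For counts this meant an equal value, counts that stayed at 0 included, or a change of at most 1.5 times. The share called in all libraries had to stay inside its Wilson interval (40.1 to 57.5%), which covers counting error only. Other values had to stay within the SD between libraries. ZBTB regions called more often in T24R2 (3) became 0 with equal list lengths and 11 when peaks had to cover 50% of a region, and ranged from 3 to 6 with 1 library left out (5 without T24R2 replicate 1, 6 without T24R2 replicate 3). Those called more often in T24 (1) became 2 and 0 under the same alternatives and ranged from 1 to 3 (3 without T24 replicate 2, and 2 without T24 replicate 3 or 4 or T24R2 replicate 3 or 5). With equal list lengths and 50% cover, more calls in T24R2 made 0% and 8.94% of ZBTB regions. The shares of exonic regions of protein-coding genes were 2.72% and 7.9%. More calls in T24 made 1.63% and 0%, compared with 2.18% and 1.16%. Such shares with 1 library left out are not given here. The ZBTB49 call (1) became 0 with −log10 q of at least 10 and 0 with equal list lengths. In both, the region was not called in every library and was not tested. With the percentile of −log10 q the count became 2 of 60, compared with 3.18% of all regions tested. With the exact permutation test it became 0, and 0 of 9577 regions were called. With the replicate block it became 0 as well (limma adjusted p = 0.103, with 0 of 9577 regions called). Same-numbered libraries of the lines were hardly correlated (r from −0.03 to 0.111). The best match of any number was little higher, at r from 0.056 to 0.14. These correlations therefore cannot tell whether the numbers pair the libraries. The share of regions called in all libraries (48.8%) was 33.3% of the 90 regions left with −log10 q of at least 10. Over all 123 regions that share was 24.4%, compared with 13.1% of exonic regions of protein-coding genes. With 50% cover it was 18.7% of the 123, compared with 12.6%. The median marked exon (2304 nt) was 3404.5 nt with −log10 q of at least 10, 2778 nt with equal list lengths and 2753 nt with the longest annotated exon, and ranged from 2304 to 2568 nt, the last without T24R2 replicate 5. The longest exon, coding or not, held 54.4% of pairs in place of 48.0%. GGAC in place of DRACH gave 40.8%, and a window of 25 nt gave 67.2%, in place of 81.6%. The cause of these shifts was not tested.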
